A study of Mus musculus with 4 samples.

Results

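The genes described here encode the machinery that copies DNA: the origin recognition complex, the helicase loading factors, the MCM helicase and its activators, the replicative polymerases, the sliding clamp and its loader, the single-strand binding protein, and the enzymes that mature the lagging strand. They were given as a list of 39 gene symbols and defined by their role in replication, in knowledge of earlier results of these data, and all 39 matched a protein-coding gene among the 21887 on the assembled chromosomes. The question was how accessible their chromatin is in resting cells. ATAC-seq, in which a transposase cuts DNA that is not packed in nucleosomes, was performed on naive CD4 T cells in 2 groups of 2 libraries, wild type and DDX55 KO, with spleen and pLN given as the tissue. Ddx55 encodes an RNA helicase of ribosome assembly; the labels name neither the driver or cell type of its deletion nor the age of the mice, and do not say whether libraries came from separate animals. The deposited list holds 64525 accessible regions on build mm10 with no value per library or genotype. Every value below therefore describes the 4 libraries together, with no error between replicates and no comparison of the genotypes, and the depth is unknown.

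Before a cell divides, the origin recognition complex marks sites on the DNA, and Cdc6 and Cdt1 load the MCM helicase there. On entry into S phase, Cdc45 and the GINS complex switch the helicase on, polymerase alpha with primase lays down primers, and polymerases delta and epsilon extend them, held to the template by the PCNA ring. Naive T cells rest outside the cell cycle until they meet antigen. Many replication genes are known targets of E2F transcription factors, which the retinoblastoma family holds in a repressive state in resting cells.

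The labelled cell type was first compared with marker genes. A region lay within 1 kb of an end of the gene for 11 of 12 naive CD4 T cell markers, among them Cd3e, Cd4, Lef1 and Ccr7. The exception was Bach2, with 33 regions inside the gene. None of 6 B cell markers had such a region (exact interval up to 45.9%), against 3 of 6 myeloid markers (Csf1r, Itgam and Spi1) and 1 of 6 liver markers (Apoa2). Of the B cell markers, Pax5 had 5 regions inside the gene and Blk had 2. The part of these other cell types in the results below was not tested. In bulk chromatin, few cells with an accessible site and weak accessibility in all cells cannot be told apart, so a small share of dividing cells is not separated from the resting ones.

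Replication genes nearly all carried accessible chromatin at an end of the gene. Counting any region that reached within 1 kb of either gene end, with 1 bp of overlap enough, there were 35 such genes among the 39 (89.7%, 95% exact binomial interval 75.8 to 97.1%). Over all protein-coding genes the share was 52.6%. Intervals cover counting error over genes only. A region lay in the gene or within 1 kb of it in all 39, against 67.6% of all genes. The 4 without a region at either end were Orc1 and Orc4 of the origin recognition complex, Rfc1, the large subunit of the clamp loader, and Lig1, the ligase that seals lagging-strand fragments.

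Other genes of DNA replication and division had shares of the same order. Of 46 other replication factors, which include checkpoint, histone chaperone and nucleotide synthesis genes, 44 had a region at an end (95.7%); the exceptions were Dnmt1, the maintenance DNA methyltransferase, and Tk1, thymidine kinase. Of 25 G1 and E2F regulators 22 had a region at an end (88%), without Ccnd1, Ccnd3 and Cdkn1a, and of 24 mitosis genes all 24 did. Of 12 other DNA polymerases 10 did, without Polg and Poli. Of 24 meiosis genes, whose products act in germ cells, 11 did (45.8%, 25.6 to 67.2%), and Ddx4, Dmc1, Hormad2 and Mael were among the 13 without. No test of the difference between these lists was made.

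**Figure D1:**
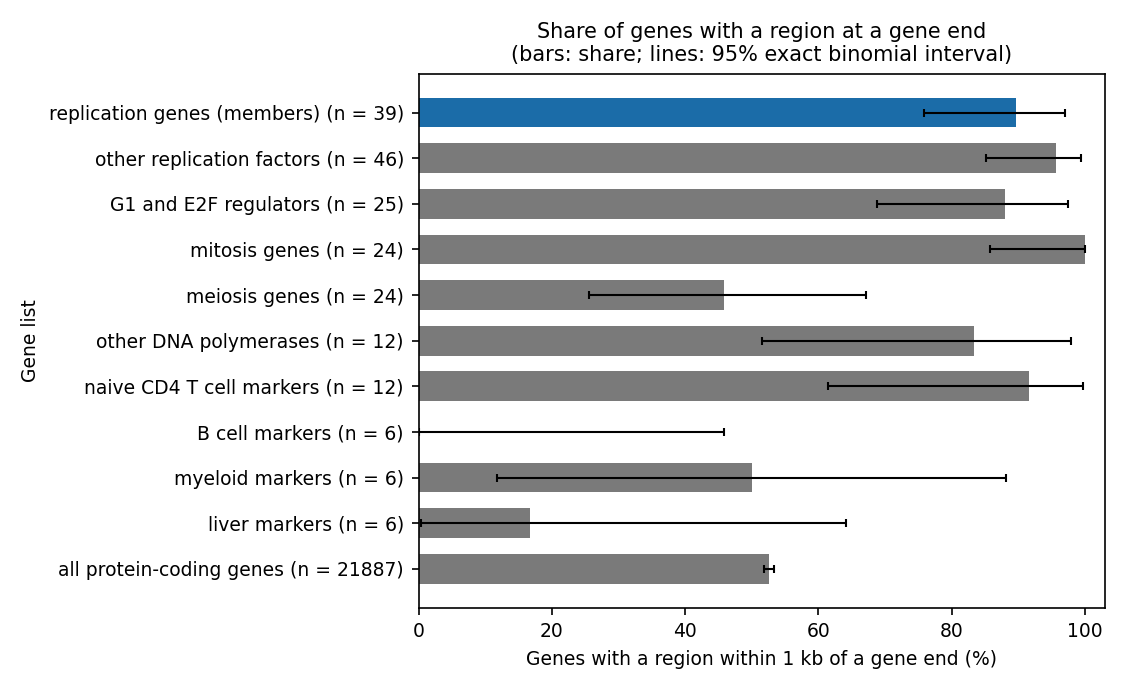
Horizontal bars give the percentage of genes in each list with an accessible region within 1 kb of a gene end, and lines the 95% exact binomial interval. The 39 replication genes (blue, 89.7%) sit near the other replication, G1 and mitosis lists, while all protein-coding genes sit at 52.6% and the meiosis list at 45.8%.

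Start sites gave a more complete picture than gene ends. RefSeq start sites on GRCm38.p6, the assembly that mm10 names, were listed for 32 of the 39 members and for 17492 protein-coding genes in all; Mcm4, Gins1, Gins2, Gins4, Prim2, Pole and Rfc2 were without an entry. All 32 had a region within 1 kb of a listed start, against 53.7% of all genes with one, and each had exactly 1 region in that window. The region covered the start base itself in 31 of 32, against 46.1% of all genes. The exception was Cdc6, whose region covered the upstream end of the gene model, 0.442 kb before the listed start. Narrowing the window to 250 bp left the count at 32, against 50.4% of all genes. Only 1 of the 32, Rfc4, had a region at its 3' end, against 8.79% of all genes.

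Promoters rich in CpG dinucleotides are accessible in most cell types, and CpG content was therefore set beside the result. The ratio of observed to expected CpG in the 300-base promoter, taken as the highest value per gene, had a median of 0.875 over the 32 members and 0.61 over all genes. Among all genes with a ratio of 0.8 or more, 87.1% had a region at a listed start, and 20 members in that class all did. Between 0.6 and 0.8 the share was 77.1% of all genes and 9 of 9 members. Between 0.4 and 0.6 it was 51.5% of all genes and 3 of 3 members, namely Mcm3 (0.452), Mcm10 (0.537) and Pole2 (0.571). In the upper 2 classes, which hold 29 of the 32 members, the share of all genes was thus nearer to that of the members than the 53.7% over all classes.

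The 4 exceptions, Orc1, Orc4, Rfc1 and Lig1, all had a region at a start site inside the gene model, whereas 8.24% of the 8171 genes with a listed start and no region at either end had one. Orc1, the ATPase subunit of the complex, has a model that begins 3.75 kb before its listed start, and a region of 768 bp reached from 564 bp before that start to 203 bp after it. Orc4 has 3 listed starts, 2.67, 2.82 and 3.63 kb into the model, and a single region of 1222 bp covered the last 2 and ended 136 bp short of the first. The region of Rfc1, 565 bp wide, spanned a start 2.98 kb into the model.

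Lig1 shows which of several listed starts were accessible. Its outermost start, at the gene end, had no region within 1 kb, and the promoter there had a CpG ratio of 0.255. The start 1.65 kb further in lay inside a region of 965 bp and had a ratio of 0.775. The innermost start, 2.09 kb into the model, lay 18 bp past the edge of that region. The subunit gene Orc2 had a similar pair: the start 0.004 kb from the gene end was covered by a region of 852 bp (CpG ratio 0.896), and the start 3.69 kb into the gene had no region within 1 kb (CpG ratio 0.0759). Of the 40 listed starts of the 32 members, 38 had a region within 1 kb and 34 were covered, and those of Lig1 and Orc2 named here were the 2 without one.

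**Figure D2:**
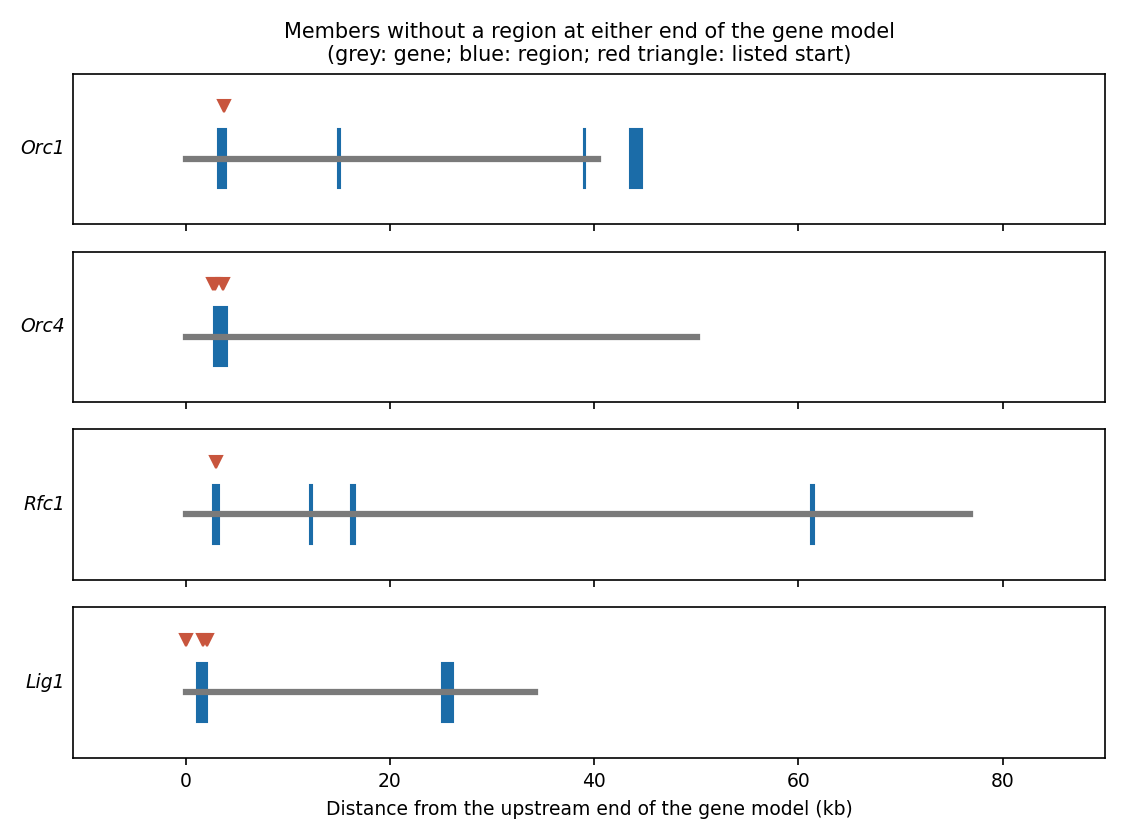
Each row maps 1 gene from 5′ to 3′, with distance from the upstream end of the gene model in kb on the horizontal axis; grey lines are the gene, blue boxes accessible regions to scale and red triangles listed starts. In Orc1, Orc4, Rfc1 and Lig1 no region touches either end of the model, and a region sits at a listed start between 1.65 and 3.75 kb inside it.

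Motifs of the E2F factors stood in the promoters of many members. The 8-letter motifs TTTCCCGC, TTTGGCGC, TTTCGCGC and TTTGGCGG were searched on both strands of the 300 bases from 250 before to 50 from the start on; a match is a description of the sequence, not a bound site. Of the 32 members 17 held at least 1 match (53.1%), against 3.44% of all genes with a listed promoter and 5.35% of the genes with a region at a listed start. TTTCCCGC alone gave 8 members, against 1.61% of all genes. The 17 were Orc1, Orc3, Orc4, Cdc6, Cdt1, Mcm3, Mcm5, Mcm6, Mcm7, Gins3, Pola2, Pold1, Pold3, Pole2, Rfc3, Rpa1 and Lig1. Over all genes, 83.6% of those with a match and 52.6% of those without had a region at a listed start. A difference of this kind was not particular to E2F matches, as the values for other motifs below show.

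The promoters below show where the matches lie. They come from RefSeq on GRCm38.p6, are written on the gene's strand from 170 bases before the start to 10 bases from the start on, and carry E2F matches in capitals, both strands included. Orc1 (chr4:108579284-108579463, plus strand) and Orc4 (chr2:48949258-48949437, minus strand) are shown for the starts inside the gene model, Mcm5 (chr8:75109339-75109518, plus strand), Mcm6 (chr1:128359696-128359875, minus strand), Mcm7 (chr5:138171874-138172053, minus strand) and Rfc3 (chr5:151651199-151651378, minus strand) for several matches within a promoter, Cdc6 (chr11:98907981-98908160, plus strand) for the match outside its region, and Prim1 (chr10:128015045-128015224, plus strand) as a promoter with no match. They were chosen after their matches were seen.
Orc1: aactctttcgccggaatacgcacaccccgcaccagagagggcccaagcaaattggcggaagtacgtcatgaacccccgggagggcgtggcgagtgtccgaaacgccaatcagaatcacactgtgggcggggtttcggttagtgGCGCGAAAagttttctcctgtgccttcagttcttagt
Orc4: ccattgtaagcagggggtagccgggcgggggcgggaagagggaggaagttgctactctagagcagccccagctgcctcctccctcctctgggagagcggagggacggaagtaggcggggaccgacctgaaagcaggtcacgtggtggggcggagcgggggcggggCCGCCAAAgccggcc
Mcm5: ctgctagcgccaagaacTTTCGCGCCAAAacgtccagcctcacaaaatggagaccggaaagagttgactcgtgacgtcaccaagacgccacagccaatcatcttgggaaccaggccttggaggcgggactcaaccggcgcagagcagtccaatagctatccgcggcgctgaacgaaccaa
Mcm6: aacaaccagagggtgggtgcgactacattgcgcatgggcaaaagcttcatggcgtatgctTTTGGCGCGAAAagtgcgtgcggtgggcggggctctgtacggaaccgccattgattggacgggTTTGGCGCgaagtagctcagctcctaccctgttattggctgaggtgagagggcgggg
Mcm7: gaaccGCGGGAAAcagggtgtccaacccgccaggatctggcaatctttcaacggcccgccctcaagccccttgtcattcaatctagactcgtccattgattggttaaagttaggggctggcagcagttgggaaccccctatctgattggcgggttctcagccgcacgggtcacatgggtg
Rfc3: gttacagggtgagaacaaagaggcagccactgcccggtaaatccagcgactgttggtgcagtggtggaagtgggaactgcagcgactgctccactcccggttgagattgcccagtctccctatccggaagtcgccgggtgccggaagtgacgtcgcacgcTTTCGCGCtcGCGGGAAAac
Cdc6: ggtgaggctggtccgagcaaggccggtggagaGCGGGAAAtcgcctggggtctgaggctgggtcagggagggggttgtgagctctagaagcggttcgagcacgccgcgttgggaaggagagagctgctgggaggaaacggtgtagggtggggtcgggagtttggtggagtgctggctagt
Prim1: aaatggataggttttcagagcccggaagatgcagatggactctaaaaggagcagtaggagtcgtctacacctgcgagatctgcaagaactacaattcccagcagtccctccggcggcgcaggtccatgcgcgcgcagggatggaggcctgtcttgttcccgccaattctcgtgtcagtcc

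In Mcm5 and Mcm6 a pair of matches on opposite strands overlapped in 1 run of 12 letters, beginning 153 bases before the start in Mcm5 and 110 before it in Mcm6. Mcm6, with 3 matches, held another from 47 bases before the start. In Rfc3 matches began 10 bases before the start and at the start base itself, and in Orc4 a match ran from 5 bases before the start to 2 after it. Mcm7 held a match from 165 bases before the start and another, past the end of the printed stretch, from 16 bases after it. The single match of Orc1 began 27 bases before its internal start.

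Of all 24 matches in members, 23 lay inside the accessible region at that start, and 17 began within 60 bases of the start. The exception was the match of Cdc6, which encodes a loader of the MCM helicase. It began 138 bases before the listed start, whereas the region of 418 bp ended 205 bases before that start. That region covered the upstream end of the Cdc6 gene model, 0.442 kb before the listed start. The overlapping pairs in Mcm5 and Mcm6 count as 2 matches each. These counts do not set E2F matches apart from other sequence, because only the 300-base promoter was searched. The regions of the 32 members reached a median of 514 bp upstream and 372 bp downstream of the start. Most matches of the other motifs described below also lay inside a region. How often other motifs began within 60 bases of the start was not compared.

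**Figure D3:**
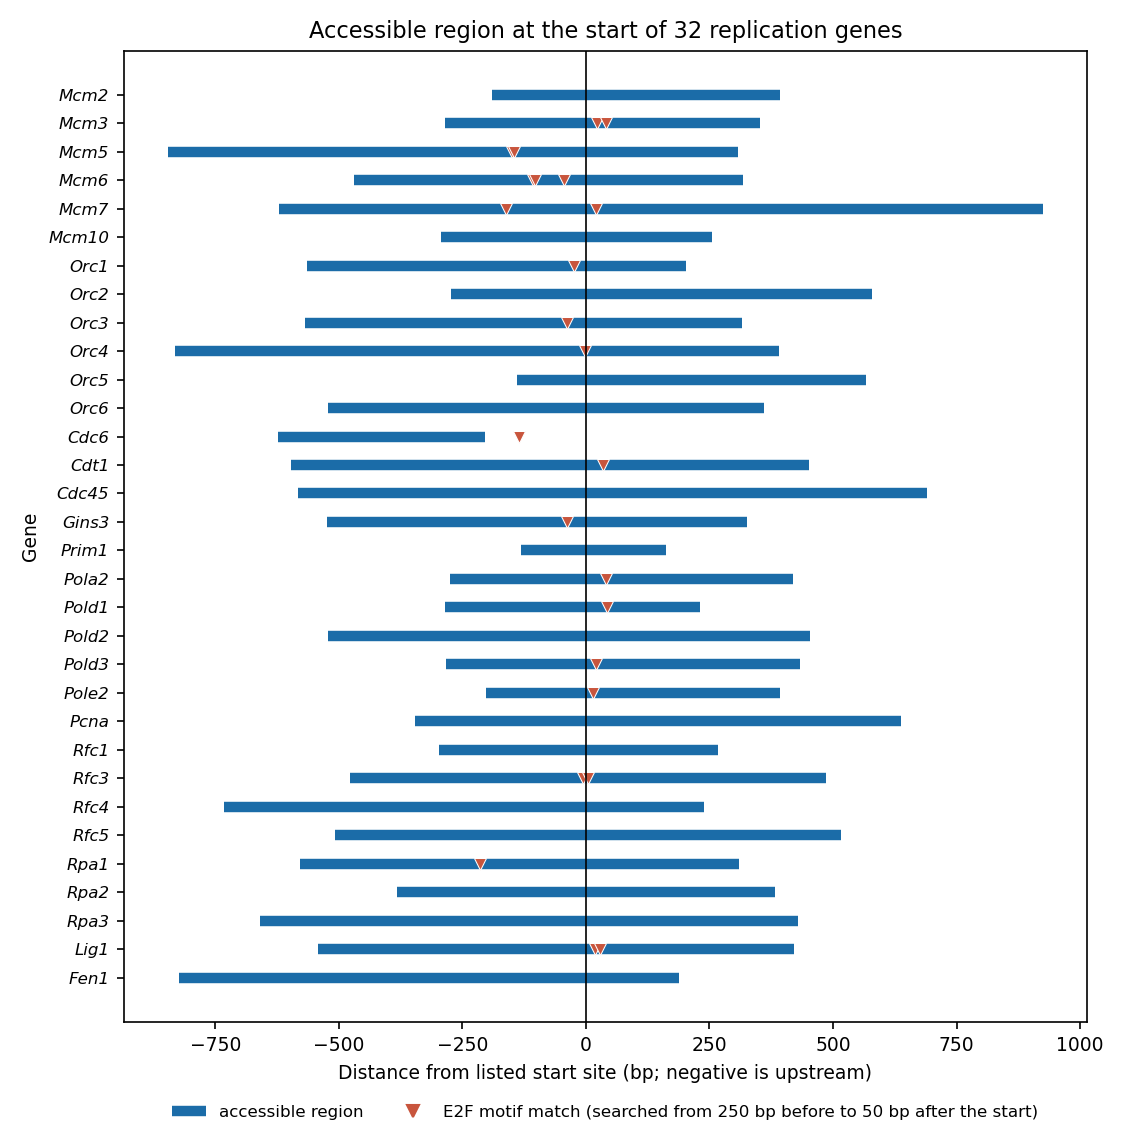
Blue bars give the extent of the accessible region around 1 listed start of each of 32 replication genes, in bp from the start with upstream to the left, and red triangles give E2F motif matches; the start with a match is drawn where a gene has several. The bar crosses the start in every gene but Cdc6, whose triangle also lies outside its bar.

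Motifs of 5 other factor families or elements were counted in the same way. CCAAT, the NF-Y box, was found in 20 of the 32 members (62.5%), against 42.3% of all genes and 43.8% of genes with a region at a listed start. GGGCGG, bound by SP and KLF factors, was found in 24 (75%), against 49.2% and 70%. TTTGAA, the core of the CHR element of mitotic genes, was found in 5 (15.6%), against 18.5% and 14.3%. CCGGAAGT, an ETS motif, was found in 8 (25%), against 5.69% and 9.85%. GCATGCGC, part of the NRF1 motif, was found in 5 (15.6%), against 3.94% and 6.34%. None of these motifs contains another, and matches of different motifs may overlap in a promoter. Over all genes, 93% of those with CCGGAAGT and 51.3% of those without had a region at a listed start. The same shares were 86.5% and 52.4% for GCATGCGC and 76.3% and 31.8% for GGGCGG. For CCAAT they were 55.6% and 52.3%, and for TTTGAA 41.7% and 56.4%.

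**Figure D4:**
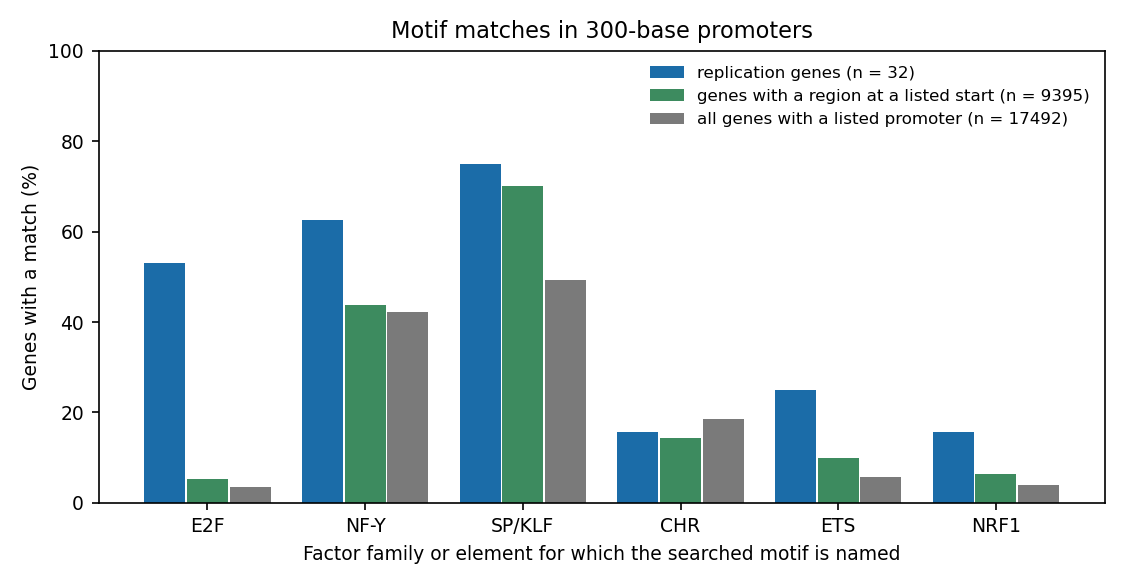
Bars give the percentage of genes with at least 1 motif match in a 300-base promoter, for replication genes, genes with a region at a listed start and all genes with a listed promoter. E2F is at 53.1% of replication genes against 5.35% and 3.44%, and the SP/KLF motif at 75% against 70% and 49.2%.

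Region width, the only measure the list gives for a region beyond its position, was similar to that of other genes. The widest region at a gene end had a median of 884 bp over 35 members (quartiles 675 and 1018 bp), against 809 bp (566 and 1035 bp) over all 11515 genes with one, and 20 of the 35 were above the median of all genes. At the start, the region of the 32 members reached a median of 514 bp upstream and 372 bp downstream. The same medians over all genes were 400 and 411 bp. It reached further upstream than downstream in 19 of the 32 members (59.4%) and in 49.2% of 9395 genes.

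In the origin recognition complex, which marks origins, the regions at gene ends had similar widths: 708 bp at Orc5, 852 bp at Orc2, 884 bp at Orc6 and 886 bp at Orc3. The regions of Orc1 (768 bp) and Orc4 (1222 bp) lay at inner starts, as above. The loading factors differed from each other. Cdt1 had a region of 1049 bp over its start, and Cdc6 the region of 418 bp upstream of it, and 15% of genes with an end region had a narrower one.

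The 6 subunits of the MCM2-7 ring ranged from 583 to 1546 bp. Mcm7 had the widest region at a gene end of the 35, 1546 bp, and 96.7% of genes with an end region had a narrower one. Mcm5 had 1154 bp, Mcm4 1085 bp, Mcm6 788 bp, Mcm3 638 bp and Mcm2 583 bp. Mcm10, which helps activate the loaded helicase, had 551 bp. Mcm7 also hosts the hairpins of Mir25, Mir93 and Mir106b, and no region overlapped any of these 3.

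Among the helicase activators, Cdc45 had a region of 1274 bp, wider than those of 90% of genes with an end region. The GINS subunits had 655 bp (Gins1), 787 bp (Gins4), 850 bp (Gins3) and 1023 bp (Gins2). Gins2 had a second, narrower region of 284 bp at its other end, which also lay at an end of Gse1.

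Primase and the polymerases included wide and narrow regions. Taking the widest region at an end of each gene, that of Prim1, the catalytic primase subunit, was the narrowest of the 35, with 295 bp from 132 bp before the start to 162 bp after it, and 8.5% of genes with an end region had a narrower one. Its partner Prim2 had 1006 bp, and Pola2, a polymerase alpha subunit, 695 bp. For polymerase delta the widths were 517 bp at Pold1, the catalytic subunit, 717 bp at Pold3 and 975 bp at Pold2. For polymerase epsilon they were 1441 bp at the catalytic subunit Pole, wider than those of 95% of such genes, and 596 bp at Pole2.

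The clamp, clamp loader and later factors lay mostly within the middle range. Pcna had 984 bp. Rfc2 had 611 bp, Rfc3 963 bp, Rfc4 972 bp and Rfc5 1025 bp. The single-strand binding protein had 767 bp at Rpa2, 888 bp at Rpa1 and 1090 bp at Rpa3. Fen1, the flap nuclease of lagging-strand maturation, had 1014 bp. Rfc4 was the member with a region at its 3' end, 100 bp wide, which also lay at an end of Eif4a2, a translation initiation factor gene.

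**Figure D5:**
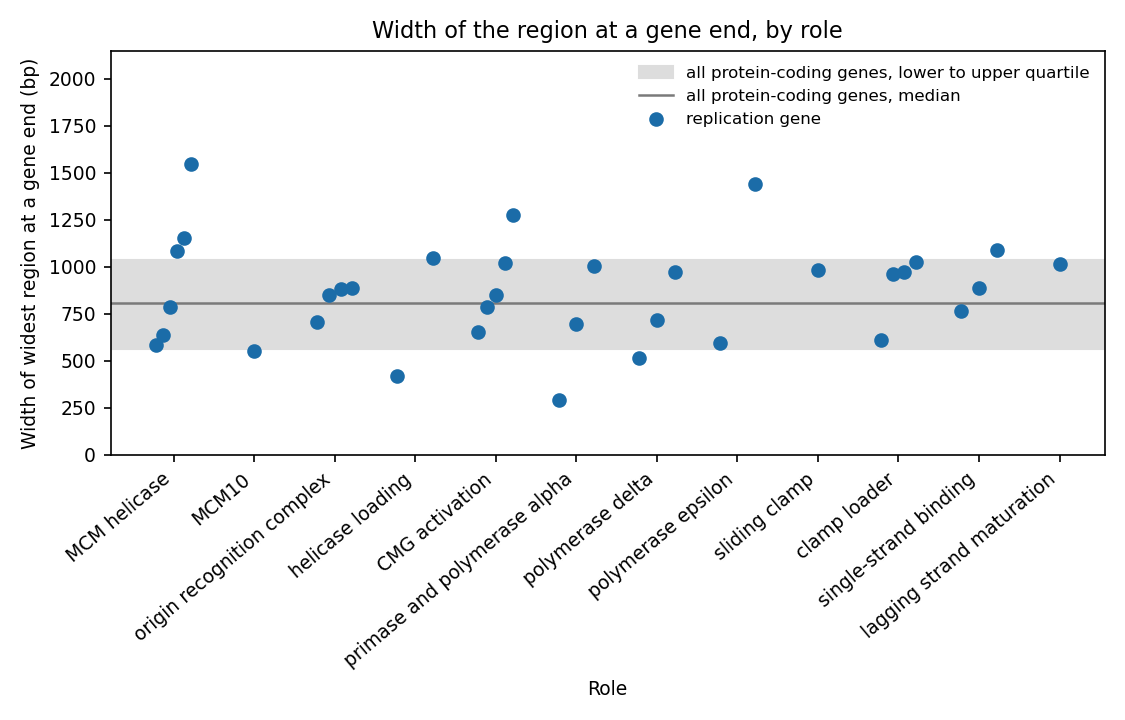
Points give the width in bp of the widest region at a gene end for 35 replication genes, by role; the grey band spans the quartiles of all protein-coding genes with such a region (566 to 1035 bp) and the line their median (809 bp). Mcm7, Pole, Cdc45, Mcm5, Rpa3, Mcm4 and Cdt1 lie above the band, from 1546 bp down to 1049 bp, and Prim1, Cdc6, Pold1 and Mcm10 below it, from 295 bp up to 551 bp.

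Many members had a region in common with a neighbouring gene. Of the 35 members with a region at a gene end, 14 (40%) had one that also lay at an end of another protein-coding gene. Over all genes with an end region the share was 29.3%. The inner-start regions of Orc1, Orc4 and Lig1 also lay at an end of another gene (Prpf38a, Mbd5 and Zswim9), which makes 17 members in all. In Gins2 and Rfc4 only the narrower end region, of 284 and 100 bp, was shared, and the wider one (1023 and 972 bp) was not. The shared regions of Pold1, Pole2 and Pcna covered the start of the member but no listed start of the neighbour. In 9 of the 31 members with a covered start (29%), the region also covered a listed start of another gene on the opposite strand, against 17.1% of all genes with a covered start.

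These 9 divergent pairs had starts 15 to 322 bp apart. The closest were Orc3 and Rars2, a mitochondrial arginyl-tRNA synthetase gene, at 15 bp, and Rpa1 and Smyd4 at 50 bp. Lig1 and Zswim9 were 105 bp apart, Orc1 and the splicing factor gene Prpf38a 118 bp, Mcm7 and the adaptor subunit gene Ap4m1 138 bp, and Rpa3 and Umad1 147 bp. Fen1 and Tmem258 were 191 bp apart, Orc4 and Mbd5 241 bp, and Cdc45 and Ufd1, a ubiquitin recognition factor gene, 322 bp. Mcm4 with Prkdc, which encodes the kinase of DNA end joining, Orc6 with the retromer gene Vps35, and Pole with Pxmp2 also shared a region, with no listed start for at least 1 gene of each pair. The wide regions of Mcm7, Pole, Cdc45, Mcm4, Orc4 and Rpa3 are all shared in this way. They lie at an end of each gene of a pair, except that of Orc4, which lies at inner starts of Orc4 and an end of Mbd5. The regions of Mcm5 (1154 bp) and Cdt1 (1049 bp), also wide, are not shared.

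Counted over the gene and its flanks, starts and ends included, replication genes held about as many regions as other genes. In and within 10 kb of the 39 genes there were 96 regions, with a median of 3 per gene against 2 over all genes and a mean of 2.46 against 2.49. Of the 96, 32 lay at a listed start of the member, 9 at an end of the member but at no listed start, and 26 inside it. In the flanks, 12 lay at an end of another coding gene and 17 away from coding gene ends. Those 17 may still hold starts, as the Pcna flank region inside Cds2 did. All of the 9 at an end of the member but the 3' region of Rfc4 belonged to members without a listed start, so some may lie at starts. For 11 members the region at the start or end was the only one: Orc4, Orc6, Gins3, Gins4, Pola2, Pold2, Rfc2, Rfc3, Rfc5, Rpa2 and Fen1. Exactly 1 region was found for 28.2% of members and 20.6% of all genes.

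A region lay inside the gene, over 1 kb from both ends, in 16 of 39 members (41%), close to the 38.7% of all genes. That count includes the inner starts of Orc1, Orc4, Rfc1 and Lig1. With regions within 1 kb of a listed start set aside, 26 regions were counted in 15 members (38.5%, against 36.6% of all genes). Prim2, Pole and Gins2, with 4, 2 and 1 of these, had no listed start to set aside, so some may lie at starts. The 26 had widths from 161 to 1155 bp and a median of 298 bp. A set defined by coding gene ends instead, 24564 regions inside all genes and away from such ends, had a median of 277 bp. Of the 26, 19 were under 350 bp. Per 100 kb of gene, the members held 2.35 of these regions and all genes 2.27.

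The inner regions over 500 bp were 4 in number, in Rpa1, Lig1 and Prim2. Rpa1, the large subunit of the single-strand binding protein, had 2, of 1155 bp at chr11:75336452-75337606 and of 811 bp at chr11:75318537-75319347, 11.4 and 29.4 kb downstream of its start. The first was wider than the region of 888 bp at the start of the same gene. Lig1 had a region of 1006 bp at chr7:13302317-13303322, 23.6 kb downstream of its innermost listed start. Prim2, the longest member at 216 kb, had 4 inner regions of 389, 472, 323 and 524 bp, and with 5 regions in all it had the most of any member.

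Members with 4 regions were Cdc45, Mcm10, Orc1, Pold1, Pole2, Prim1 and Rfc1. Rfc1 had 3 narrow inner regions (178, 424 and 308 bp) 9.25, 13.4 and 58.4 kb downstream of its start. Cdc45 had 2, of 313 and 231 bp, and Mcm10 had 2, of 236 and 175 bp. Prim1 had none inside; 2 of its other 3 regions lay at an end of Naca, and the third inside Naca. Pole2 had, 30.7 kb downstream of its start and past its 3' end, the widest flanking region of any member, 1843 bp at chr12:69196574-69198416 within Dnaaf2. Pcna had 2 wide flanking regions, of 876 bp inside Tmem230 and 1303 bp inside Cds2. The latter had its middle 9.8 kb upstream of the Pcna start. The nearest listed start of Cds2 was 9968 bp from the Pcna start and lay inside that region. To which genes such regions relate was not tested.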

How the data were processed

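ATAC-seq data of 4 libraries, 2 wild-type and 2 labelled DDX55 knockout, were analysed through the joint list of accessible regions that the authors deposited; it holds 3 columns (sequence, start, end) and no count, score or library. Per the submitters' processing notes, build mm10 was used with MACS3 3.0.0b1, Bowtie2 2.5.08, fastp 0.12.4 and SAMtools 1.15.1, without roles. The peak threshold, the transposase offset and the joining of peaks were not given in the sources used here. Coordinates were converted to 1-based. Gene positions, start sites and promoters came from RefSeq tables of GRCm38.p6. The members and lists were chosen with earlier results of these data known, so counts stand beside those of all protein-coding genes and no test was made. All 39 members are named; other genes named are list members without a region at an end (up to 4 per list), neighbours that share a region, and a few chosen after their values were seen. Overlap counting was tested on simulated data. Other windows, flanks, region filters, backgrounds and motif sets were tried. Python 3.11.15, pandas 2.3.3 and scipy 1.17.1 were used.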

Additional observations from a re-analysis of the deposited data

How the results depend on the processing

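The list pools 4 libraries without values, so no library could be left out, and depth cannot be weighed. No paired analysis was possible because the columns carry no library or replicate. Counts and medians had no replicate spread, and a change of up to 1.5 times was taken as stable. Of 32 alternative values for 7 results, 29 were stable. The rule was applied to the raw member value and not to the share of all genes beside it. Counts of 35 of 39 and 32 of 32 could not rise by 1.5 times, so for them it could show a fall only. With the gene body alone in place of 10 kb flanks, the median fell from 3 regions to 1, as in all genes. With regions of at least 300 bp only, members with an inner region went from 16 to 10 (25.2% of all genes). With TTTCCCGC alone, members with an E2F match went from 17 (3.44% of all genes) to 8 (1.61%), and with the first T left out to 24 (14.7%). A region anywhere in the gene or within 1 kb was found for 39 members. Members with a region at an end numbered 34 to 37 under the other settings for the full list. Among genes with a CpG ratio of at least 0.6, 25 of 29 members and 79% of all genes had one. Alternatives added after seeing the data were the first listed start only (31 of 32 members, without Lig1) and E2F backgrounds of genes with a region at a start (5.35%) or a CpG ratio of at least 0.6 (5.72%).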

Other observations

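The share of promoters with an E2F motif match differed among the other gene lists, and was 3.44% over all genes with a listed promoter. Of 38 other replication factors with a listed promoter 11 held a match (28.9%), among them Pola1, Mcm8, Clspn and Topbp1. All 11 had a region at a listed start, as did 36 of the 38. Of 18 G1 and E2F regulators 6 (33.3%) held a match (Cdk2, E2f2, E2f3, E2f7, Rbl1 and Tfdp1). All 18 had a region at a listed start, with or without a match. Of 18 meiosis genes 5 held a match. Msh5, a mismatch repair homologue, and Syce2, of the synaptonemal complex, had a region at a listed start. Dmc1, the meiotic recombinase, Hormad1 and Sycp3 had none there. Of 21 mitosis genes Cdk1 and Ncapg held a match (9.52%), and all 21 had a region at a listed start. Of 8 other DNA polymerases 0 held a match, and all 8 had a region at a listed start. These lists are small and the differences were not tested.

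Among the other replication factors, 36 of 38 had a region at a listed start. The exceptions were Tk1, with no region at an end either, and Timeless, with a region of 1459 bp at a gene end. Dnmt1, Ccnd3, Cdkn1a and Polg had no region at a gene end and, as with Orc1, Orc4, Rfc1 and Lig1, had one at a listed start.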
